A study of Mus musculus with 18 samples.

Results

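The genes described here are 50 genes of DNA replication and S phase, taken by symbol from a table of 25926 mouse genes, and all 50 were found in it. They were read in bone marrow-derived macrophages (BMDMs), which are macrophages grown from mouse bone marrow, by RNA-seq in 18 samples. BMDMs of C57BL/6 mice were grown for 7 days in 50 ng/mL macrophage colony-stimulating factor (M-CSF) and then placed in the upper chamber of a Transwell plate with 0.4 μm pores, above primary kidney tubular epithelial cells (TECs) of wild-type mice. In NC, the BMDMs received PBS above TECs without crystals. In COM, the BMDMs received PBS above TECs that had been given 100 μg/mL COM, calcium oxalate monohydrate crystals, for 24 h. In COM+Met, the BMDMs received 5.0 mM Met for 24 h above TECs given the same COM dose. Each group had 6 samples, and all 3 groups shared the M-CSF culture, the strain and the TEC layer below. Nothing in the labels ties a sample to a mouse or a culture, so p-values describe only how far these samples vary, and that variation may be technical. The comparison of COM with NC asks how crystal-exposed TECs change BMDMs, and that of COM+Met with COM asks what Met adds.

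Before a cell copies its DNA, the origin recognition complex, CDC6 and CDT1 load rings of MCM2 to MCM7 on replication origins in G1 phase. At the start of S phase, CDC45 and the GINS complex turn these rings into active helicases, primase and polymerase alpha lay down primers, and the clamp PCNA, set in place by the RFC clamp loader, holds polymerases delta and epsilon on the strand. Nucleotide enzymes such as ribonucleotide reductase supply the building blocks. Many of these genes are transcribed by E2F factors late in G1, and M-CSF is the growth factor that drives the division of cultured macrophages.

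Promoter sequence was not itself used to choose the genes. They were chosen by function, and many S-phase genes are transcribed by E2F factors, so the shares below are not independent of that choice. Of the 50 genes, 41 had an entry in the RefSeq promoter table on build GRCm38.p6. The names without an entry were Mcm4, Gins1, Gins2, Gins4, Rfc2, Prim2, Pole, Ccne2 and Tipin. The 250 bases before each start were searched on both strands for E2F-type letters (TTTCCCGC, TTTGGCGC or TTTCGCGC, which can overlap each other), for CCAAT and for TTTGAA. E2F-type letters were in 10 of the 41 genes (24.4%) and in 1.78% of the 27025 genes of that table. CCAAT was in 25 of the 41 (61.0%) and in 37.5% of all, and TTTGAA was in 7 of the 41 (17.1%) and in 18.3% of all. These shares are descriptions without a test. E2F-type letters were in 5 of the 9 matched licensing genes and in 0 of the 5 nucleotide supply genes, and such letters are not a shown binding site.

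To show the E2F-type letters in place, 1 stretch is given for each of these 10 genes. The window of Mcm5 held 1 further match and that of Mcm6 held 2 further matches, which are not shown separately, and where they overlap the shown match they stand in lower case. The match is in capitals, on the strand of the gene, with 10 bases on each side where the window allowed. They lie at chr4:108579417-108579444 (plus strand) for Orc1, chr11:98908003-98908030 (plus) for Cdc6, chr8:75109350-75109377 (plus) for Mcm5, chr1:128359794-128359821 (minus) for Mcm6 and chr5:138172031-138172058 (minus) for Mcm7. The others lie at chr8:95633508-95633535 (plus) for Gins3, chr5:151651209-151651228 (minus) for Rfc3, chrX:93632276-93632303 (minus) for Pola1, chr17:56304118-56304145 (plus) for Uhrf1 and chr9:20952825-20952852 (minus) for Dnmt1.
Orc1: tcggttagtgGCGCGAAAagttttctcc
Cdc6: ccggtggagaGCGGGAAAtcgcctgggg
Mcm5: aagaactttcGCGCCAAAacgtccagcc
Mcm6: tatgcttttgGCGCGAAAagtgcgtgcg
Mcm7: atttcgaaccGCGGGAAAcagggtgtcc
Gins3: cgagtgcggcGCGGGAAAgcgagtttga
Rfc3: cgtcgcacgcTTTCGCGCtc
Pola1: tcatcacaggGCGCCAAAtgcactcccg
Uhrf1: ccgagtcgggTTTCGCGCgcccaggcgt
Dnmt1: gtttccgcgcGCGCGAAAaagccggggt

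Whole windows of 250 bases are shown for Cdc45, Rfc4 and Rrm2, the genes with the largest change in COM against NC, on the log2(FPKM + 1) scale used for the test, among helicase activation, clamp loading and nucleotide supply genes. By the ratio of mean FPKM, Mcm10 (11.02-fold lower) changed more than Cdc45 (6.21-fold lower). The Mcm7 window lies in an exon annotated for Mcm7 in GENCODE M21, so only the stretch above is shown for it. The windows are chr16:18811973-18812222 (minus strand) for Cdc45, chr16:23127731-23127980 (minus) for Rfc4 and chr12:24708004-24708253 (plus) for Rrm2, and their last 15, 7 and 13 bases fall in an annotated first exon. Capitals mark CCAAT or its reverse complement ATTGG. Cdc45 and Rrm2 each held 1 such match, and Rfc4 held none of the searched letters.
Cdc45: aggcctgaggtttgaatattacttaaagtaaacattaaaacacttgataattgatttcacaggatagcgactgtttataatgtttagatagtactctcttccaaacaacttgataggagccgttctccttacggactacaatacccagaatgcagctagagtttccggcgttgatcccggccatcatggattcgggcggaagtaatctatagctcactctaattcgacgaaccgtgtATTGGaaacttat
Rfc4: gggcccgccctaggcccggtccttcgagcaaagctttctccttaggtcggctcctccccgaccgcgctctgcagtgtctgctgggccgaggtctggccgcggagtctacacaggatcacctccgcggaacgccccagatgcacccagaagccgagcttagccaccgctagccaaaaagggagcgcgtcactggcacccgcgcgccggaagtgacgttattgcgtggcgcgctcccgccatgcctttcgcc
Rrm2: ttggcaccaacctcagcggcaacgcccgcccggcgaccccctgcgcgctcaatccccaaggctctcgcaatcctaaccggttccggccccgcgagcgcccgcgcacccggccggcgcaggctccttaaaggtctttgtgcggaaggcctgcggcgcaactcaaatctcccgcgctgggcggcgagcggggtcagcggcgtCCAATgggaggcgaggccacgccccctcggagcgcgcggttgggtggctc

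Levels are FPKM, fragments scaled to gene length and to the mapped fragments of a sample, so they can be set side by side between genes. The table gives no counts, and the read depth behind a value is unknown. The 8 macrophage markers summed to 10600 to 17050 FPKM in single samples, and the 8 lymphoid and erythroid markers summed to at most 1.74 FPKM. Most of the macrophage sum was Lyz2 (8531 to 14540 FPKM), while Fcgr1 was at 6.93 to 9.17 FPKM in NC. Some libraries stood apart within their group. NC-5 and NC-6 both lay above NC-1 to NC-4 for 46 of the 50 replication genes and for 28.9% of the 10751 genes that averaged 1 FPKM or more. COM-4, COM-5 and COM-6 all lay below COM-1 to COM-3 for 28 of the 50 and for 44.6% of the 10751. Of these, COM-6 had the lowest summed FPKM over all genes of any sample (380731). It holds some of the extremes given for COM below, such as Fen1 at 2.10 FPKM and Mcm7 at 1.56. Results are therefore also given without these libraries.

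**Figure D1:**
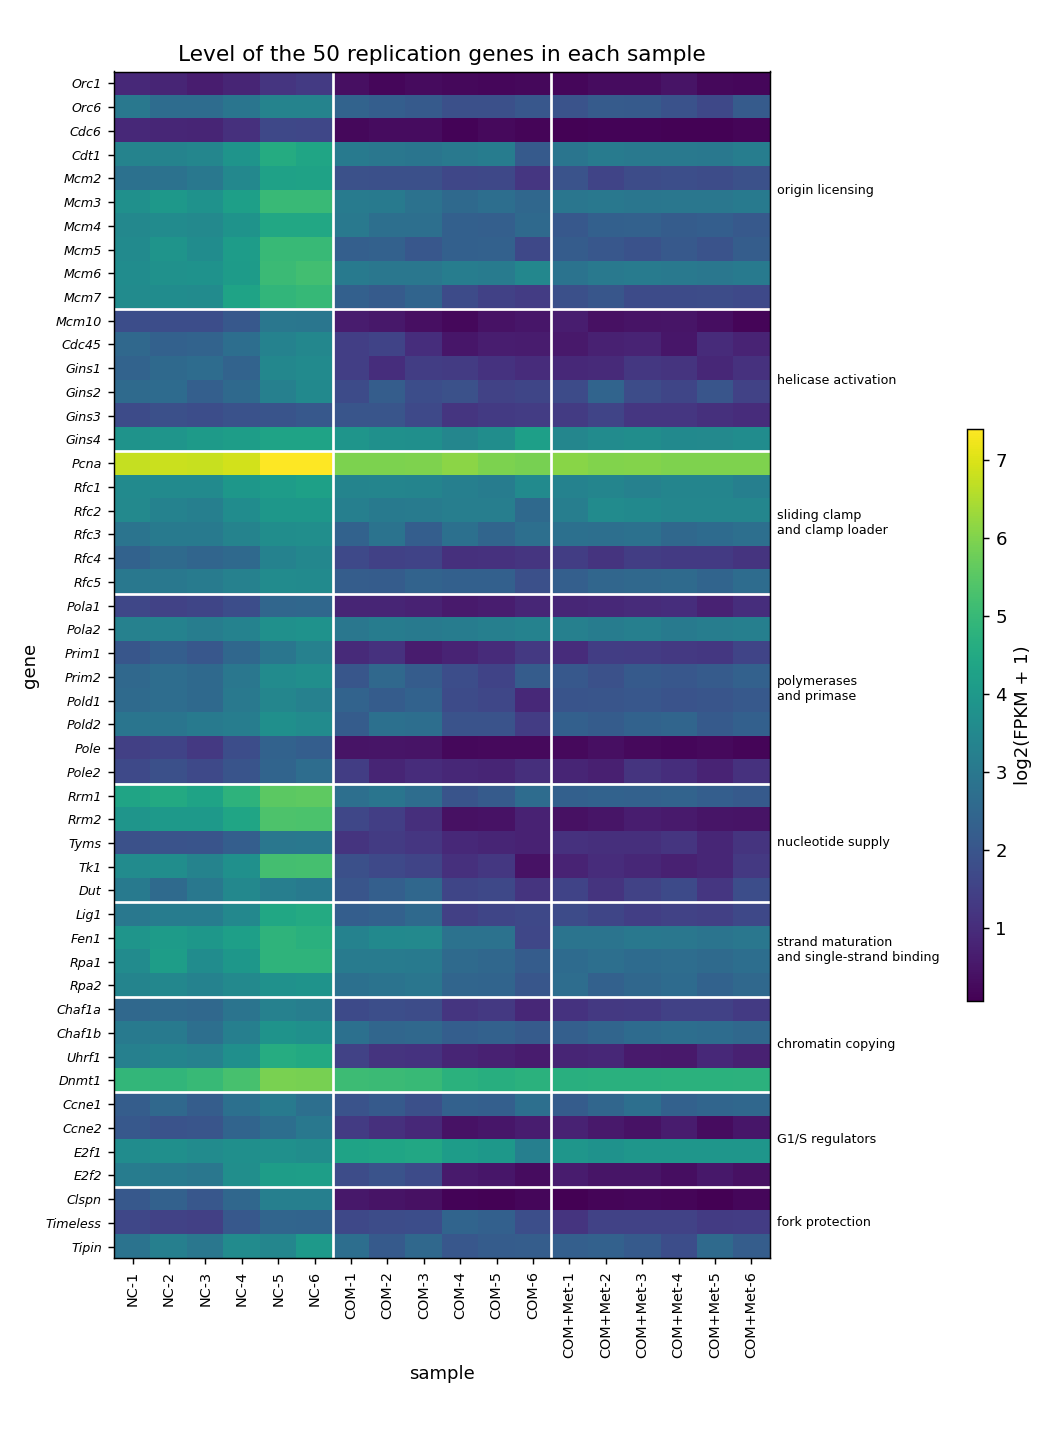
Level of each of the 50 genes (rows, grouped by role) in each of the 18 samples (columns), as log2(FPKM + 1) on the colour scale. Most rows are brighter in the 6 NC columns than in the 12 others and brightest in NC-5 and NC-6, while E2f1, Pola2 and Gins4 differ little in shade between groups.

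In COM the replication genes were lower together. Summed over the 50 genes, the level was between 474.6 and 953.4 FPKM in NC, between 227.7 and 296.8 FPKM in COM and between 249.1 and 258.9 FPKM in COM+Met. NC did not overlap with either group, and the COM+Met sums lay inside the range of COM. The ratio of mean FPKM, NC over COM, had a median of 2.88 over all 50 genes. On the log2(FPKM + 1) scale, which understates the change of low genes, the median difference of COM against NC was -1.15 over all 50, and 48 of the 50 were lower. Among the 20315 genes with any signal in these samples, 13651 were lower and the median difference was -0.073.

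**Figure D2:**
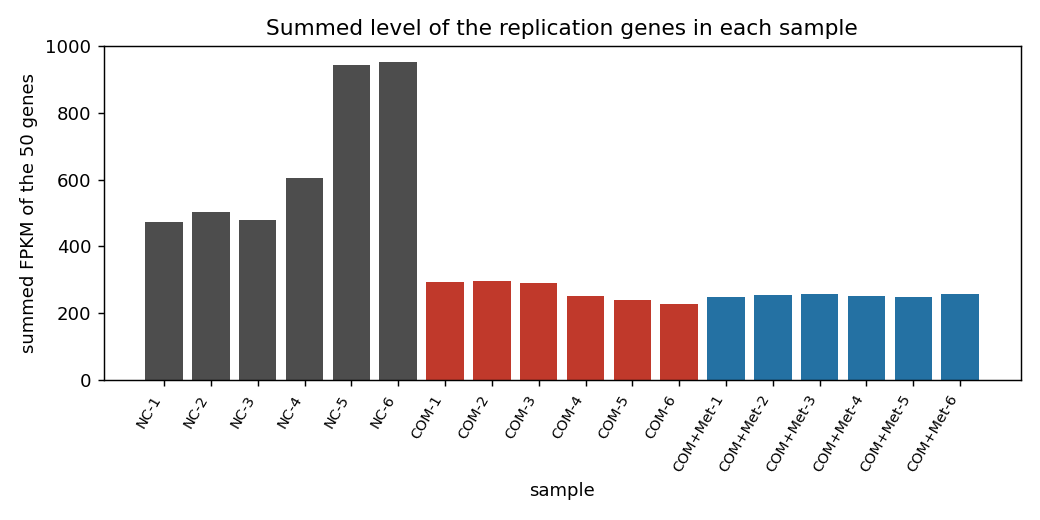
Summed FPKM of the 50 genes (vertical axis) in each sample (bars, grey NC, red COM, blue COM+Met). The 4 lower NC bars reach 474.6 to 604.3, NC-5 and NC-6 reach 942.7 and 953.4, and all 12 bars of the other groups stay at or under 296.8.

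A gene was tested with limma if it averaged 1 FPKM or more across the 12 samples of the comparison. Of the 50 genes 48 did so, and Orc1 and Cdc6 stayed below that level. Of the 48, 41 fell at an adjusted p below 0.05, against 40.6% of the 10900 genes tested, and 33 also fell at least 2-fold, against 11.7% of all genes tested. At an adjusted p below 0.05, 0 rose, against 12.7% of all genes (5.99% at least 2-fold), and 1 was higher at an unadjusted p below 0.05. The groups did not overlap, with every COM sample below every NC sample, in 38 of the 48, against 29.7% of all genes. The median log2 fold change of the 48 was -1.19 and that of all 10900 genes was -0.27, so relative to all genes the median of the replication genes was -0.92. Genes that passed the level filter through NC alone had to differ, so the fit was repeated without a filter: all 50 were then tested, 43 fell at an adjusted p below 0.05, against 27.5% of all genes tested, and 33 of them at least 2-fold, against 6.37%. With the 4 NC samples NC-1 to NC-4 alone, 38 of 47 tested fell, against 32.3% of all genes, and 22 fell at least 2-fold, against 10.7%, with a median of -0.88. With COM-1 to COM-3 alone, 43 of 48 fell, against 36.6% of all genes, and 25 of them at least 2-fold, against 7.46%, with a median of -1.04. Scaling by median-of-ratios size factors, which sets the median of all genes near 0, gave 38 that fell and 1 that rose, while over all genes that scaling turned 1382 higher and 4423 lower into 2497 higher and 2623 lower. The number that fell at least 2-fold depended on other settings. It was 15 of 48 tested with sample weights and 11 of 48 with a pseudocount of 5. When only genes averaging 5 FPKM or more were kept, fewer were tested, and 19 of 31 fell at least 2-fold. Under each of these settings fewer genes of the whole table fell at least 2-fold as well, so the drop was not confined to the replication genes. Below, the largest and smallest change of a role are ranked among its tested genes on the log2(FPKM + 1) scale.

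Markers of several cell types differed between NC and COM. Of the 8 macrophage markers, 3 rose at least 2-fold at an adjusted p below 0.05, against 5.99% of all genes. Adgre1 was at 98.6 to 119.8 FPKM in NC and 518 to 669.1 in COM. Cd14 was at 19.7 to 116.3 and 225.5 to 503, and Fcgr1 at 6.93 to 9.17 and 46.6 to 149.1. The mean of 3 of the 8 was lower in COM. The 6 stromal markers (Col1a1, Col1a2, Col3a1, Pdgfra, Pdgfrb and Dcn) summed to 14.4 to 60.2 FPKM in NC, 4.61 to 36.6 in COM and 2.32 to 7.33 in COM+Met. Their mean was lower in COM than in NC for 5 of the 6 and higher for Pdgfrb. Pdgfrb was at 0.482 to 1.498 FPKM in NC and 2.246 to 7.04 in COM, with no overlap. The 6 marrow progenitor markers summed to 2.36 to 4.90 FPKM in NC and 0.906 to 3.05 in COM. The mean was lower in COM for 5 of them and higher for Kit (0.488 to 1.27 FPKM in NC, 0.656 to 2.81 in COM). Mpo, Elane and Ctsg were at 0 in all 6 COM samples. They were already low in NC, at 0 to 0.263, 0 to 1.07 and 0.834 to 1.33 FPKM. The 8 neutrophil markers summed to 543.1 to 1053 FPKM in NC and 1170 to 1842 in COM, although the mean of 6 of the 8 was lower in COM. The mean was higher for Lcn2 (9.03 to 39.05 FPKM in NC, 640.3 to 1672 in COM) and Camp. Of the 6 with a lower mean, S100a9, Ngp and Ltf did not overlap between the groups. S100a9 was at 113.6 to 259.2 FPKM in NC and 1.336 to 17.81 in COM. Ngp was at 13.45 to 48.42 and 0.2539 to 3.412, and Ltf at 2.184 to 3.927 and 0 to 0.3586. Of 11 tubular epithelial markers, Krt18 and Umod were at 0 in all NC samples and 9 of the 11 stayed below 1 FPKM in all of them, whereas Cdh1 was at 9.45 to 17.8 FPKM in NC and 0.317 to 0.954 in COM. In bulk RNA, fewer cells of a type and less RNA per cell cannot be told apart. Which cells the Cdh1 and Lcn2 RNA came from was not tested, nor was the part of any cell type in the fall of the replication genes.

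Of the 10 origin licensing genes, all 8 tested fell, 6 of them at least 2-fold (5 with NC-1 to NC-4 alone). Mcm6, a subunit of the MCM ring and the licensing gene with the highest mean level, was at 11.5, 14.4 and 35.0 FPKM in NC (lowest, median and highest of 6 samples) and at 6.79, 7.52 and 9.95 in COM. Mcm7, another ring subunit, was at 11.1, 15.1 and 30.2 FPKM in NC and at 1.56, 2.94 and 4.42 in COM. For both genes every COM sample was below every NC sample. The log2 fold change was -1.13 ± 0.26 (SE, adjusted p = 0.00308, limma) for Mcm6 and -2.25 ± 0.29 (adjusted p = 4.63e-05) for Mcm7, the largest of the tested licensing genes. The other ring subunits lay between them, from Mcm4 at -1.28 through Mcm3 at -1.499 and Mcm2 at -1.76 to Mcm5 at -2.03. Mcm6 and Mcm7 had the smallest and the largest change of the ring subunits, so a shift of their ratio follows from the choice of pair. As a description, that ratio was 0.842 to 1.17 in NC and 1.54 to 6.39 in COM. Orc6, a subunit of the origin recognition complex, had the smallest log2 fold change of the 8 tested (-0.90 ± 0.15) and was at 5.31 to 9.24 FPKM in NC and 2.59 to 4.23 in COM. Cdt1, the ring loader, fell by 0.94 on the log2 scale.

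The 2 licensing genes below the level filter followed the same order of groups. Orc1 was at 0.567 to 1.47 FPKM in NC and 0.144 to 0.300 in COM. Cdc6, which helps to load the ring, was at 0.786 to 2.15 FPKM in NC and 0.0935 to 0.247 in COM. Neither gene overlapped between the groups, and in the fit without a filter both passed (log2 fold change -0.70 for Orc1 and -0.93 for Cdc6).

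Among the 6 helicase activation genes 4 fell, all at least 2-fold (3 with NC-1 to NC-4 alone), and Gins3 and Gins4 did not pass. Cdc45, which joins the MCM ring in the active helicase, was at 4.11, 5.22 and 10.0 FPKM in NC and 0.416, 0.786 and 1.89 in COM, and fell by 1.85 on the log2 scale (SE 0.24, adjusted p = 5.46e-05). Mcm10, which acts with it at the start of S phase, fell by 1.79. GINS is a complex of 4 subunits with unequal values. Gins1 fell by 1.61 and Gins2 by 1.02, whereas Gins4 was at 13.1, 16.3 and 19.1 FPKM in NC and 9.81, 12.2 and 17.3 in COM (log2 fold change -0.33 ± 0.14, adjusted p = 0.0578), and it passed without COM-6 (-0.41), NC-1 (-0.38) or NC-2 (-0.37). With NC-1 to NC-4 alone the Gins4 value shrank to -0.21 (limma, adjusted p = 0.256). Gins3 was at 2.36 to 3.25 FPKM in NC and 1.28 to 3.02 in COM, with a log2 fold change of -0.30 ± 0.15 (adjusted p = 0.117) that changed sign to 0.0086 with COM-1 to COM-3 alone and to 0.051 with quantile normalisation, and that passed without COM-1 or COM-2 (both -0.38). As a description of a pair with unlike changes in these same samples, the ratio of Gins4 to Gins1 was 1.74 to 3.99 in NC and 6.32 to 17.1 in COM.

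The clamp and clamp loader genes all fell, 3 of the 6 at least 2-fold. With NC-1 to NC-4 alone 4 of the 6 fell, 1 of them at least 2-fold. Pcna, the sliding clamp, was the most abundant of the 50 genes. It was at 105.7, 114 and 167.3 FPKM in NC and at 58.0, 60.8 and 69.1 in COM, with no overlap (log2 fold change -1.02 ± 0.14, adjusted p = 5.85e-05). Rfc4, a small subunit of the loader, had the largest change of the role, from 4.13, 4.98 and 10.0 FPKM in NC to 1.10, 1.53 and 2.21 in COM (-1.45 ± 0.20). Rfc1, the large subunit, was at 10.8, 12.6 and 17.7 FPKM in NC and 7.81, 9.33 and 10.9 in COM, which overlap at their edges (-0.48 ± 0.14, adjusted p = 0.0097). This fall of Rfc1 did not pass with NC-1 to NC-4 alone (adjusted p = 0.0515) or with median-of-ratios scaling (adjusted p = 0.284).

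Of the 8 polymerase and primase genes 7 fell, 6 of them at least 2-fold. The 2-fold count was lower without NC-5 and NC-6: with NC-1 to NC-4 alone 6 of 7 tested fell, and 1 of them, Prim1 (-1.26), at least 2-fold. Pole was below the level filter there, at 1.44 to 2.48 FPKM in NC-1 to NC-4. The log2(FPKM + 1) scale understates the change of low genes such as Pola1 and Pole2. Mean FPKM in NC-1 to NC-4 and in COM was 2.095 and 0.685 for Pola1, and 2.49 and 1.02 for Pole2. With COM-1 to COM-3 alone all 8 fell, 3 of them at least 2-fold. Prim1, the catalytic subunit of primase, had the largest log2 fold change, from 3.04, 4.21 and 8.83 FPKM in NC to 0.527, 0.921 and 1.44 in COM (-1.56 ± 0.21, adjusted p = 7.29e-05). Pole, the catalytic subunit of polymerase epsilon, was at 1.44 to 4.13 FPKM in NC and 0.162 to 0.383 in COM, and its mean FPKM was 9.33-fold lower, against 5.29-fold for Prim1. Pola2, the accessory subunit of polymerase alpha, had the highest mean level and the smallest change of the role. It was at 8.07, 8.92 and 12.8 FPKM in NC and 6.92, 7.84 and 8.92 in COM (-0.30 ± 0.12, adjusted p = 0.0519), and it passed without NC-3 (-0.35) or COM-6 (-0.33) and with COM-1 to COM-3 alone (-0.38). With NC-1 to NC-4 alone the Pola2 value shrank to -0.13 (limma, adjusted p = 0.270). As a description, the ratio of Pola2 to the catalytic subunit Pola1 was 2.66 to 4.89 in NC and 8.97 to 14.96 in COM.

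The nucleotide supply genes all fell at least 2-fold (4 of the 5 did so with NC-1 to NC-4 alone), and their median log2 fold change (-2.31) was the lowest of the 9 roles. Rrm2, the small subunit of ribonucleotide reductase, was at 13.8, 17.6 and 39.9 FPKM in NC and 0.325, 0.882 and 2.07 in COM. Every COM sample was far below every NC sample, and the log2 fold change of -3.55 ± 0.31 (adjusted p = 1.74e-06) was the largest of the 48 genes. The mean FPKM was 23.2-fold lower in COM. Rrm1, the large subunit of the same enzyme and the most abundant gene of the role, was at 18.9, 24.3 and 46.4 FPKM in NC and 2.92, 5.42 and 6.58 in COM (-2.31 ± 0.25). The ratio of Rrm1 to Rrm2 was 1.15 to 1.42 in NC and 2.77 to 10.3 in COM. Tk1, the cytosolic thymidine kinase, fell by 2.83 and Tyms, thymidylate synthase, by 1.30. Dut, which removes dUTP, had the smallest change of the role and was at 5.04, 7.40 and 10.2 FPKM in NC and 1.27, 2.55 and 4.69 in COM (-1.21 ± 0.21).

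The genes of strand maturation and single-strand binding all fell, with no overlap of the groups for any of the 4. Fen1, the flap endonuclease that trims Okazaki fragments, was at 13.9, 16.7 and 27.6 FPKM in NC and 2.10, 7.58 and 10.7 in COM (-1.33 ± 0.30, adjusted p = 0.00269). Lig1, the ligase that joins these fragments, was at 7.00, 9.02 and 22.5 FPKM in NC and 1.76, 2.98 and 4.92 in COM (-1.64 ± 0.31). Rpa2, a subunit of the single-strand binding protein, had the smallest change, from 9.03 to 13.3 FPKM in NC to 3.07 to 6.76 in COM (-0.96 ± 0.16).

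Among the chromatin copying genes 3 of the 4 fell. Uhrf1, which recognises newly copied methylated DNA and brings in the maintenance methyltransferase, was at 8.63, 10.8 and 23.1 FPKM in NC and 0.528, 0.992 and 1.86 in COM (-2.79 ± 0.26, adjusted p = 2.99e-06). Its partner Dnmt1, that methyltransferase, was at 28.7, 34.1 and 59.0 FPKM in NC and 24.1, 28.4 and 32.8 in COM (-0.43 ± 0.19, adjusted p = 0.0786), and it passed without NC-2 (-0.51). With NC-1 to NC-4 alone the Dnmt1 value shrank to -0.14 (limma, adjusted p = 0.4025). Its FPKM in COM-1 to COM-3 (30.9 to 32.8) lay inside the range of NC-1 to NC-4 (28.7 to 37.5). The Uhrf1 groups were far apart and the Dnmt1 groups overlapped. Chaf1a and Chaf1b, subunits of the histone chaperone CAF-1, fell by 1.39 and 0.85.

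The G1/S regulators held both directions. E2f2, an activating E2F factor, was at 6.90, 9.85 and 17.2 FPKM in NC and 0.231, 1.43 and 2.81 in COM (-2.40 ± 0.34, adjusted p = 8.81e-05). E2f1, its close relative, was at 11.2, 11.9 and 12.3 FPKM in NC and 8.43, 17.6 and 20.9 in COM. In 5 of the 6 COM samples E2f1 was above every NC sample, and COM-6 was below them all, so the groups overlapped (0.40 ± 0.17, adjusted p = 0.0692). Without COM-6 the log2 fold change was 0.57 and passed (adjusted p = 0.000199). E2f1 also passed with COM-1 to COM-3 alone (0.70), sample weights (0.71), median-of-ratios scaling (0.68) and quantile normalisation (0.64). It passed as well with TPM scaling and with all 18 samples in a shared fit (both 0.40). With NC-1 to NC-4 alone it did not pass (0.41, adjusted p = 0.139). Cyclin E drives entry into S phase with CDK2. Ccne2, one cyclin E gene, was at 2.83 to 7.01 FPKM in NC and 0.334 to 1.54 in COM and fell by 1.54. Ccne1, the other, was at 3.64, 5.25 and 7.34 FPKM in NC and 2.60, 3.62 and 5.69 in COM (-0.38 ± 0.18, adjusted p = 0.0893), and passed without COM-6 (-0.48, adjusted p = 0.0222). With NC-1 to NC-4 alone the Ccne1 value shrank to -0.23 (limma, adjusted p = 0.337). The ratio of E2f1 to E2f2 was 0.680 to 1.62 in NC and 7.01 to 36.5 in COM.

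Of the 3 fork protection genes 2 fell, both at least 2-fold, and 1 of them did so with NC-1 to NC-4 alone. Clspn, the mediator of the replication checkpoint, was at 3.19, 4.40 and 8.42 FPKM in NC and 0.0717, 0.228 and 0.451 in COM (-2.27 ± 0.21, adjusted p = 3.31e-06). Timeless and Tipin, whose products form a complex at the fork, differed in value. Tipin was at 6.22, 9.05 and 14.99 FPKM in NC and 3.14, 3.65 and 5.55 in COM (-1.03 ± 0.19), whereas Timeless was at 1.76, 2.67 and 4.44 FPKM in NC and 2.13, 2.49 and 4.42 in COM (0.03 ± 0.21, adjusted p = 0.905). The Timeless groups covered each other, and its small value changed sign when single NC or COM samples were left out.

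**Figure D3:**
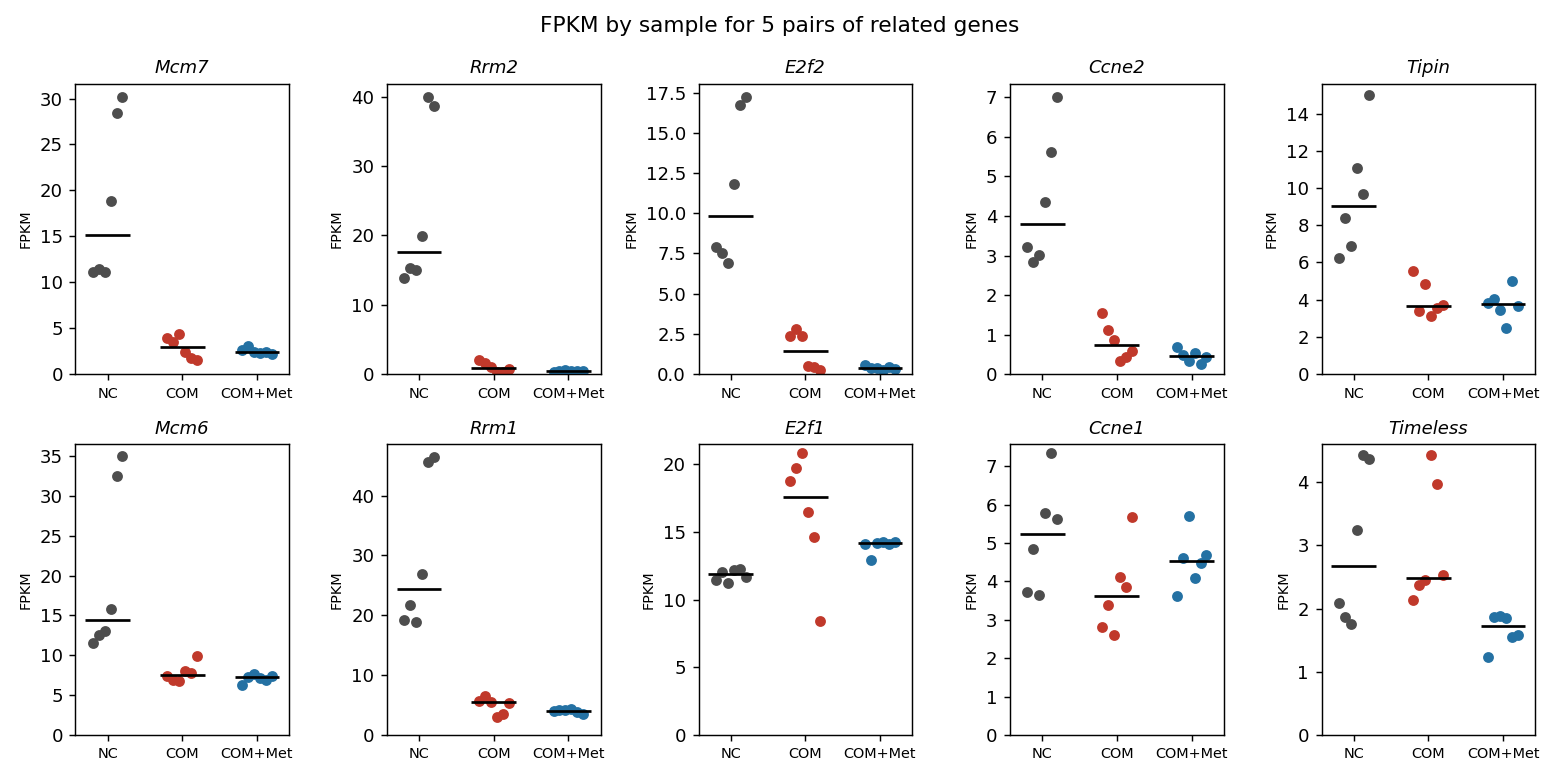
FPKM (vertical axes from 0) in each sample (points, 6 per group) for 5 pairs of genes of related function, with the group median as a black line. Mcm7, Rrm2, E2f2, Ccne2 and Tipin separate NC from COM, with Mcm6 and Rrm1, whereas E2f1, Ccne1 and Timeless overlap between them.

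COM+Met against COM gave a different picture, with 38 of the 50 genes above the level filter. At an adjusted p below 0.05, 1 of the 38 fell (7.58% of the 10364 genes tested) and 0 rose (5.77% of all), and 0 were called at 2-fold in either direction (1.61% of all genes lower and 0.608% higher). With limma at an unadjusted p below 0.05, 4 were lower and 3 higher. The groups did not overlap in 1 gene that was lower and in 0 that were higher, against 5.34% and 5.83% of all genes. The median log2 fold change was -0.06 for the 38 genes and 0.00 for all genes, and without a filter it was -0.08 over all 50, of which 1 fell. The gene that fell was Timeless, at 2.13, 2.49 and 4.42 FPKM in COM and 1.23, 1.72 and 1.88 in COM+Met (-0.55 ± 0.14, adjusted p = 0.0224). This call was lost without COM+Met-1 (adjusted p = 0.0508), COM+Met-5 (0.0507) or COM+Met-6 (0.0503), and with quantile normalisation (0.0651). Mcm4 (-0.40 ± 0.12) and Rfc2 (0.37 ± 0.12), named after their values were seen, both missed the threshold at an adjusted p of 0.051. Genes that were low in COM were also low in COM+Met. Rrm2 was at 0.311 to 0.587 FPKM, E2f2 at 0.274 to 0.544 and Cdc6 at 0.0713 to 0.131 in COM+Met.

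The count in this comparison depended on which COM samples entered. Against COM-1 to COM-3 alone, 18 of 39 replication genes fell at an adjusted p below 0.05, where 43.4% of all genes tested fell, and 4 rose, where 17.8% of all rose. The share of the replication genes that fell was thus close to that of all genes. Those that fell included E2f2 (-1.34 ± 0.09, adjusted p = 2.45e-07), Lig1 (-0.83 ± 0.09), Dut (-0.78 ± 0.15), Tk1 (-0.77 ± 0.12), E2f1 (-0.47 ± 0.05) and Rrm1 (-0.48 ± 0.07). Ccne1 (0.49 ± 0.11), Prim1 (0.43 ± 0.13), Rfc2 (0.29 ± 0.08) and Rfc5 (0.22 ± 0.08) rose. COM-4 to COM-6 already had E2f2 at 0.231 to 0.521 FPKM, against 2.34 to 2.81 in COM-1 to COM-3 and 0.274 to 0.544 in COM+Met. Weighting the samples by their spread in place of leaving any out gave 17 that fell of 38, where 44.8% of all genes fell, and 4 that rose, where 19.7% rose.

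**Figure D4:**
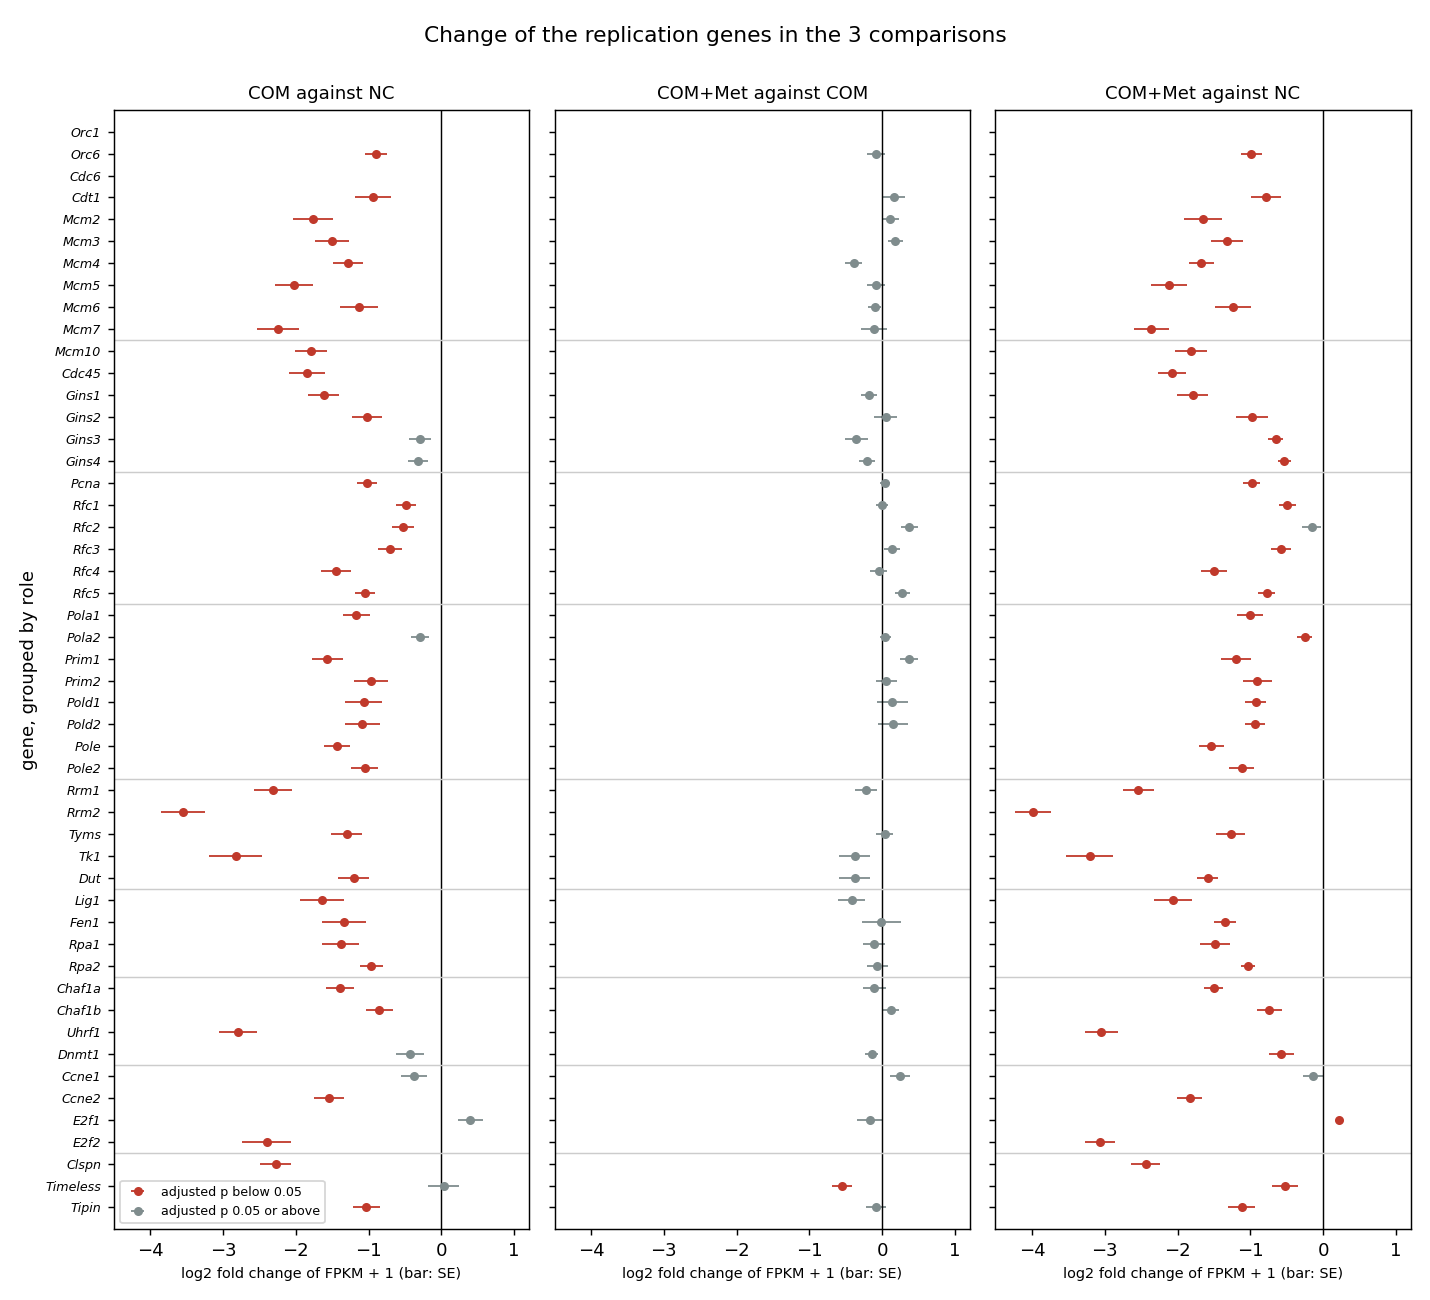
Log2 fold change of FPKM + 1 with its SE (horizontal axis) for each gene (rows, grouped by role) in the 3 comparisons. Red points passed at an adjusted p below 0.05 and grey points did not, and genes below the level filter have no point. Points lie left of 0 in the outer panels except E2f1 and, in COM against NC, Timeless, and lie around 0 in the middle panel.

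COM+Met against NC shares its NC samples with the comparison of COM with NC, so it is no independent repeat, and the values are given side by side. Of 48 genes tested 45 fell, against 55.9% of all 10786 genes, 28 fell at least 2-fold, against 13.6%, and 1 rose, against 19.3%. The groups did not overlap, with COM+Met lower, in 42, against 43.6% of all genes. The median log2 fold change was -1.22, with -0.26 for all genes. Rrm2 was at -3.98 (-3.55 in COM against NC), Tk1 at -3.21 (-2.83), E2f2 at -3.07 (-2.40), Uhrf1 at -3.04 (-2.79) and Mcm7 at -2.36 (-2.25). Gins3 (-0.65 ± 0.10), Gins4 (-0.53 ± 0.09) and Dnmt1 (-0.57 ± 0.17) fell here. The Dnmt1 call was lost with median-of-ratios scaling (-0.27, adjusted p = 0.173) and with quantile normalisation (adjusted p = 0.0603). As a description, the spread among the COM+Met samples was small (Gins4 at 9.81 to 11.5 FPKM). E2f1 was the gene that rose, at 12.9 to 14.2 FPKM in COM+Met against 11.2 to 12.3 in NC (0.22 ± 0.04, adjusted p = 0.000169, two-sided exact permutation p = 0.00216, the smallest that 12 samples allow), a call that was lost when all 18 samples shared a fit (adjusted p = 0.188). Ccne1 (-0.13 ± 0.14) and Rfc2 (-0.16 ± 0.13) did not pass.

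A further 91 genes around replication, in 5 lists, were read in the same fits, and 83 of them were tested in COM against NC. Of the 83, 56 fell and 4 rose at an adjusted p below 0.05, against the shares of all genes given above. Among 32 tested genes of other replication machinery 23 fell and 0 rose, with a median log2 fold change of -0.72. Top2a, the topoisomerase that untangles copied chromosomes, fell the most of them, from 26.1, 32.7 and 55.3 FPKM in NC to 0.540, 1.39 and 2.32 in COM (-4.05 ± 0.24, adjusted p = 8.90e-08), and Asf1a, a histone chaperone, had the highest value (0.25 ± 0.14, adjusted p = 0.162), which passed with median-of-ratios scaling (0.50), with quantile normalisation (0.56) and without COM-1 (0.34). Among 7 tested genes of other nucleotide supply 6 fell and 1 rose. Nme1, a nucleoside diphosphate kinase, fell by 1.52. Dck, the deoxycytidine kinase of the salvage route, rose from 9.32 to 15.1 FPKM in NC to 12.5 to 20.6 in COM (0.44 ± 0.15, adjusted p = 0.0218), a call that was lost with COM-1 to COM-3 alone (0.22, adjusted p = 0.214) and without COM-4 (0.39), NC-1 (0.39) or NC-3 (0.39).

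Among 14 S-phase drivers 8 fell and 1 rose. Ccna2, the cyclin A of S phase, had the largest fall of the list, from 21.9, 26.2 and 53.3 FPKM in NC to 0.0728, 0.652 and 1.22 in COM (-4.36 ± 0.27, adjusted p = 1.19e-07). Myc, a transcription factor of growth, was at 9.56, 10.6 and 14.7 FPKM in NC and 0.128, 0.297 and 0.531 in COM (-3.20 ± 0.12). Cdk2, the kinase partner of cyclins E and A, fell by 1.18. Ccnd2, a D-type cyclin, rose from 2.64 to 3.86 FPKM in NC to 4.49 to 17.7 in COM (1.33 ± 0.29, adjusted p = 0.00229). Ccnd1, another, was at 1.197 to 3.23 FPKM in NC and 0.528 to 2.78 in COM (-0.43 ± 0.28, adjusted p = 0.216), and fell when COM-1 to COM-3 alone were used (-1.02, adjusted p = 0.00368).

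Of the 16 tested brakes on S-phase entry 8 fell, 2 rose and 6 did not pass at an adjusted p below 0.05 (limma). Those shares were near those of all genes (40.6% lower and 12.7% higher). At least 2-fold, 5 of the 16 fell, against 11.7% of all genes, and 0 rose, against 5.99%. Cdkn2c, an inhibitor of the cyclin D kinases, fell by 2.94 and Gmnn, the inhibitor of CDT1, by 1.13. Rb1, the retinoblastoma protein that restrains E2F factors, fell by 0.74, a call that was lost with median-of-ratios scaling (-0.45, adjusted p = 0.0569). E2f5, a repressive E2F, rose from 1.62 to 3.08 FPKM in NC to 3.11 to 9.26 in COM (0.87 ± 0.21, adjusted p = 0.00356). Samhd1, which breaks down deoxynucleotides in non-dividing macrophages, rose from 87.8, 104 and 127 FPKM in NC to 119, 166 and 249 in COM (0.66 ± 0.20, adjusted p = 0.0147), a call that was lost with COM-1 to COM-3 alone (0.23, adjusted p = 0.108) and with NC-1 to NC-4 alone (adjusted p = 0.0767). Cdkn1a, the p53-responsive kinase inhibitor p21, was at 71.7 to 112 FPKM in NC and 72.4 to 194 in COM (0.24 ± 0.23, adjusted p = 0.409), and its sign changed with COM-1 to COM-3 alone (-0.20). Cdkn1b, the inhibitor p27, was at 11.6 to 16.4 FPKM in NC and 8.47 to 17.0 in COM (-0.15 ± 0.16, adjusted p = 0.419), and its sign changed with median-of-ratios and quantile scaling. Of 14 tested genes of replication-coupled repair and checkpoint 11 fell and 0 rose, with a median of -0.57, and Rad17, a checkpoint clamp loader, had the highest value at 0.07 ± 0.09, which passed with median-of-ratios scaling (0.35) and with quantile normalisation (0.32).

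**Figure D5:**
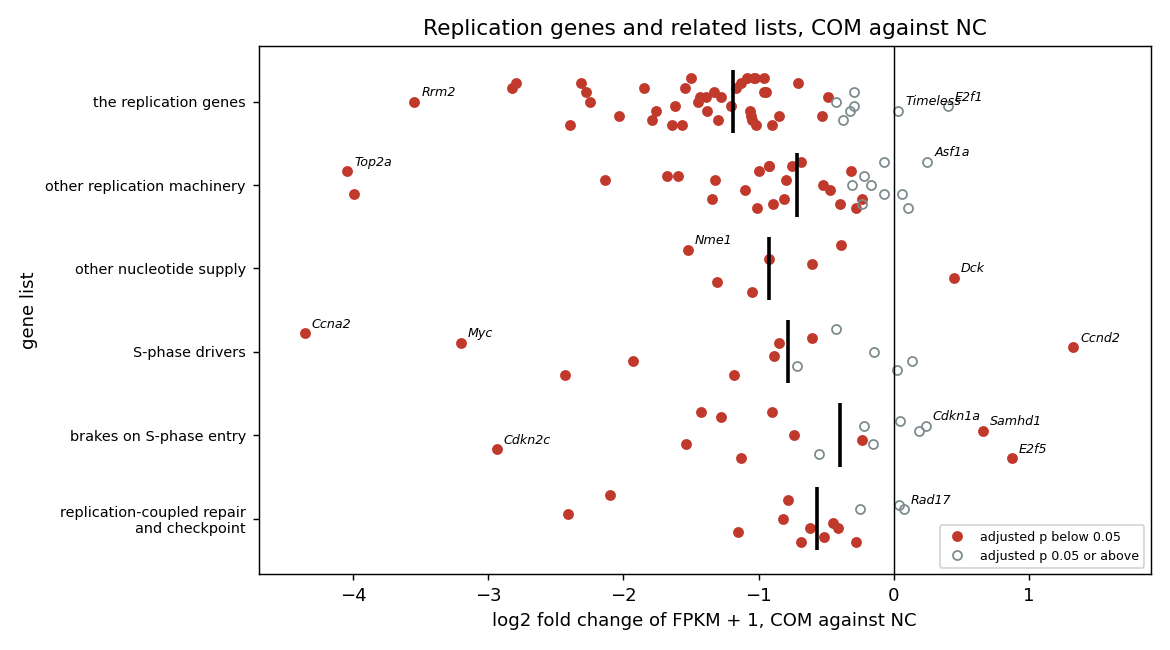
Log2 fold change of FPKM + 1 in COM against NC (horizontal axis) for the tested replication genes (48, top row) and for 5 related lists (83 tested genes). Filled points passed at an adjusted p below 0.05, and the vertical bar is the median of the row. The medians run from -1.19 for the replication genes to -0.39 for the brakes, the row in which Samhd1 and E2f5 lie to the right of 0.

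In COM+Met against COM, 6 of 65 tested genes of these lists fell and 2 rose, near the shares of all genes (7.58% and 5.77%), and 0 passed at 2-fold. Cdkn1b (-0.61 ± 0.15, adjusted p = 0.0157), Dck (-0.55 ± 0.13, adjusted p = 0.0136) and Gmnn (-0.43 ± 0.10, adjusted p = 0.0137) were among those that fell. The Dck call was lost with median-of-ratios scaling (adjusted p = 0.0527) and with quantile normalisation (adjusted p = 0.0507), and the Gmnn call with all 18 samples in a shared fit (adjusted p = 0.0621). In COM+Met against NC, 64 of 83 fell, against 55.9% of all genes, and 5 rose, against 19.3%, with Ccna2 at -4.80, Top2a at -4.39, Myc at -3.03, Ccnd2 at 0.85 and E2f5 at 1.35.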

How the data were processed

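RNA-seq values of 18 BMDM samples were used, with groups and replicate numbers from the labels. The authors deposited FPKM values per gene and sample, with replicates kept apart. Bowtie 0.12.2 appears in the submitters' processing notes, as do mm8 and mm9, none with a stated role. Which quantifier and annotation were applied is not given in the sources used here. Depth is unknown.

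Values were transformed to log2(FPKM + 1). Those averaging 1 FPKM or more across the 12 samples of a comparison entered limma 3.58.1 (eBayes with a trend, R 4.3.3), and p-values were adjusted by Benjamini-Hochberg across every gene tested. Passing meant an adjusted p below 0.05, and called also at least 2-fold. For single genes an exact permutation test, two-sided, enumerated 924 splits. The fit was checked on data with known answers.

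The 50 genes, their roles and the lists were chosen with earlier results of these data known. Named genes were those with the highest mean level, the largest and the smallest change in COM against NC in each role, those of opposite sign, those called in COM+Met against COM (0) and those below the filter; in the lists, the highest and lowest value of each and 10 preset names. The lowest value of the repair list is not reported here. Others are named to complete a complex or after their values were seen. Promoters came from a RefSeq table (GRCm38.p6), a build other than those in the notes, and each gene counted once. Alternatives were other pseudocounts (0.1 and 5), filters, scalings, a replicate block, all 18 samples in a shared fit, sample weights, each sample left out, and the libraries that stood apart left out. Tables were built in Python 3.11.15 with pandas 2.3.3 and numpy 2.4.6, and plots with matplotlib 3.10.9.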

Additional observations from a re-analysis of the deposited data

Results flagged for a closer look

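In COM+Met, E2f1 was at 12.9 FPKM in COM+Met-2, below the other 5 samples of the group, which lay close together up to 14.2 FPKM, by a gap larger than Dixon's test allows at its 95% level. It was the only case among 84 groups of samples tested (28 quantities in 3 groups), and chance flags about 1 in 20 groups. The value stayed above all 6 NC samples.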

How the results depend on the processing

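The median log2 fold change of the tested replication genes stayed negative in COM and in COM+Met against NC under every alternative tried. The values below are those that moved most, each with the reported value in brackets, and where no construction is named the cause was not tested. With a pseudocount of 5, in COM against NC replication genes called lower numbered 11 (33), all genes called higher numbered 417 (653), all genes called lower numbered 563 (1273) and the median log2 fold change of the replication genes was -0.68 (-1.19). With a pseudocount of 5, in COM+Met against COM replication genes passing higher numbered 1 (0), all genes called higher numbered 29 (63) and all genes called lower numbered 61 (167). With a pseudocount of 5, in COM+Met against NC replication genes called lower numbered 13 (28), all genes called lower numbered 679 (1467) and the median log2 fold change of the replication genes was -0.70 (-1.22). With a filter of at least 5 FPKM, which tests fewer genes, in COM against NC replication genes called lower numbered 19 (33), replication genes passing lower numbered 27 (41), list genes passing lower numbered 31 (56) and all genes called lower numbered 833 (1273). With a filter of at least 5 FPKM, which tests fewer genes, in COM+Met against COM replication genes passing lower numbered 0 (1), list genes passing higher numbered 1 (2), all genes called lower numbered 104 (167) and all genes passing lower numbered 519 (786). With a filter of at least 5 FPKM, which tests fewer genes, in COM+Met against NC replication genes called lower numbered 16 (28), replication genes passing lower numbered 28 (45), list genes passing lower numbered 38 (64) and all genes called lower numbered 913 (1467). With sample weights, in COM against NC replication genes called lower numbered 15 (33), replication genes passing higher numbered 1 (0), list genes passing higher numbered 7 (4) and all genes called lower numbered 777 (1273). Also, all genes passing higher numbered 2407 (1382), the median log2 fold change of the replication genes was -0.81 (-1.19) and the log2 fold change was 0.045 (-0.30) for Gins3 and -0.039 (0.25) for Asf1a and -0.22 (0.24) for Cdkn1a and 0.16 (-0.15) for Cdkn1b. With sample weights, in COM+Met against COM replication genes passing higher numbered 4 (0), replication genes passing lower numbered 17 (1), list genes passing higher numbered 14 (2) and list genes passing lower numbered 29 (6). Also, all genes called higher numbered 216 (63), all genes called lower numbered 503 (167), all genes passing higher numbered 2041 (598) and all genes passing lower numbered 4639 (786). Also, the log2 fold change was 0.033 (-0.11) for Mcm6. With sample weights, in COM+Met against NC the median log2 fold change of the replication genes was -0.89 (-1.22) and the log2 fold change was 0.11 (-0.13) for Ccne1. With values rescaled to TPM, in COM against NC replication genes passing higher numbered 1 (0). With values rescaled to TPM, in COM+Met against COM replication genes passing higher numbered 1 (0), replication genes passing lower numbered 2 (1) and the log2 fold change was -0.0045 (0.041) for Pcna. With median-of-ratios size factors, in COM against NC replication genes passing higher numbered 1 (0), list genes passing higher numbered 8 (4), all genes called lower numbered 826 (1273) and all genes passing higher numbered 2497 (1382). Also, all genes passing lower numbered 2623 (4423) and the log2 fold change was 0.13 (-0.15) for Cdkn1b. With median-of-ratios size factors, in COM+Met against COM replication genes passing higher numbered 1 (0), replication genes passing lower numbered 2 (1), list genes passing higher numbered 4 (2) and the log2 fold change was 0.0019 (-0.013) for Fen1. With median-of-ratios size factors, in COM+Met against NC list genes passing higher numbered 11 (5), all genes passing higher numbered 3842 (2080), all genes passing lower numbered 3762 (6034) and the median log2 fold change of the replication genes was -0.96 (-1.22). Also, the all-gene median of log2 fold changes was 0.0071 (-0.26) and the log2 fold change was 0.026 (-0.25) for Pola2 and 0.12 (-0.13) for Ccne1. With quantile normalisation, in COM against NC replication genes passing higher numbered 1 (0), list genes passing higher numbered 9 (4), list genes passing lower numbered 37 (56) and all genes passing higher numbered 2411 (1382). Also, all genes passing lower numbered 2831 (4423) and the log2 fold change was 0.051 (-0.30) for Gins3 and 0.083 (-0.15) for Cdkn1b. With quantile normalisation, in COM+Met against COM replication genes passing higher numbered 1 (0), list genes passing higher numbered 4 (2), all genes passing higher numbered 951 (598) and the log2 fold change was 0.011 (-0.052) for Rfc4 and 0.0102 (-0.0073) for Rfc1. With quantile normalisation, in COM+Met against NC list genes passing higher numbered 10 (5), all genes passing higher numbered 3757 (2080), all genes passing lower numbered 3895 (6034) and the median log2 fold change of the replication genes was -0.92 (-1.22). Also, the all-gene median of log2 fold changes was -5.8e-05 (-0.26) and the log2 fold change was 0.023 (-0.25) for Pola2 and 0.18 (-0.13) for Ccne1. With all 18 samples in a shared fit, in COM against NC replication genes passing higher numbered 1 (0). With all 18 samples in a shared fit, in COM+Met against NC replication genes passing higher numbered 0 (1). With COM-4, COM-5 and COM-6 left out, in COM against NC replication genes passing higher numbered 1 (0), list genes passing higher numbered 2 (4), all genes called lower numbered 818 (1273) and the log2 fold change was 0.0086 (-0.30) for Gins3 and -0.20 (0.032) for Timeless and -0.20 (0.24) for Cdkn1a and 0.15 (-0.15) for Cdkn1b. With COM-4, COM-5 and COM-6 left out, in COM+Met against COM replication genes called lower numbered 1 (0), replication genes passing higher numbered 4 (0), replication genes passing lower numbered 18 (1) and list genes passing higher numbered 11 (2). Also, list genes passing lower numbered 27 (6), all genes called higher numbered 236 (63), all genes called lower numbered 535 (167) and all genes passing higher numbered 1850 (598). Also, all genes passing lower numbered 4499 (786) and the log2 fold change was 0.018 (-0.11) for Mcm6. With NC-5 and NC-6 left out, in COM against NC the median log2 fold change of the replication genes was -0.88 (-1.19). With NC-5 and NC-6 left out, in COM+Met against NC the median log2 fold change of the replication genes was -0.90 (-1.22) and the log2 fold change was 0.018 (-0.13) for Ccne1. With a pseudocount of 0.1, in COM+Met against COM all genes called higher numbered 95 (63), all genes called lower numbered 275 (167) and the log2 fold change was 0.015 (-0.013) for Fen1. With a pseudocount of 0.1, in COM+Met against NC the median log2 fold change of the replication genes was -1.49 (-1.22). Leaving out 1 sample at a time, replication genes passing higher in COM against NC ran from 0 to 1 (changed without COM-6) and the log2 fold change of Timeless in COM against NC ran from -0.064 to 0.14 (changed without NC-1, NC-2, NC-3, COM-4, COM-5). Likewise replication genes passing higher in COM+Met against COM ran from 0 to 3 (changed without COM-4, COM-5, COM-6, COM+Met-1) and replication genes passing lower in COM+Met against COM ran from 0 to 4 (changed without COM-4, COM-5, COM-6, COM+Met-1, COM+Met-5, COM+Met-6). Likewise list genes passing higher in COM+Met against COM ran from 2 to 6 (changed without COM-6) and list genes passing lower in COM+Met against COM ran from 3 to 10 (changed without COM-2, COM-3, COM-4, COM+Met-3). Likewise all genes passing higher in COM+Met against COM ran from 393 to 1101 (changed without COM-6, COM+Met-2, COM+Met-6) and all genes passing lower in COM+Met against COM ran from 541 to 1652 (changed without COM-6). Likewise the log2 fold change of Rfc4 in COM+Met against COM ran from -0.11 to 0.015 (changed without COM-1) and the log2 fold change of Rfc1 in COM+Met against COM ran from -0.049 to 0.037 (changed without COM-2, COM-6, COM+Met-3, COM+Met-6). Likewise the log2 fold change of Fen1 in COM+Met against COM ran from -0.28 to 0.11 (changed without COM-1, COM-2, COM-3) and the log2 fold change of Rpa2 in COM+Met against COM ran from -0.18 to 0.0061 (changed without COM-3).

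The replicate numbers did not pair the samples: for 0 pairs did the correlation of deviations exceed 0.1, and 0 samples correlated best with their own number. With the block, 33 replication genes fell at least 2-fold in COM against NC, as without it, while Pola2 (adjusted p = 0.043) and Ccne1 (adjusted p = 0.0318) passed there. With the replicate number as a block, in COM+Met against COM all genes passing higher numbered 288 (598) and all genes passing lower numbered 456 (786). Among single genes over all alternatives, 2080 values kept their direction and side of the threshold, 65 passed newly, 36 no longer passed and 38 changed sign. Read depth is unknown, so no limit from depth can be set.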
